A study of Mus musculus with 14 samples.

Results

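The 10 heat shock chaperone genes described here are Hsp90aa1, Hsp90ab1, Hspa1a, Hspa1b, Hspa8, Hspb1, Hsph1, Dnaja1, Dnajb1 and Hspd1. They were taken by symbol from a table of 54532 genes, where each symbol stood on 1 row, and all 10 were among the 16034 genes with enough counts to be tested. Heart RNA was sequenced from male C57BL/6J mice that were 8 weeks old at irradiation, with 1 library per mouse. IRR_1d (n = 3) and IRR_6w (n = 4) had received 30 Gy of 60Co γ-rays locally to the chest under pentobarbital anaesthesia, and their hearts were taken after 1 day or 6 weeks. Control_1d (n = 3) and Control_6w (n = 4) were the hearts of mice without irradiation at the same times. No group carried a transgene or a deletion. The 6-week mice were also older than the 1-day mice when their hearts were taken, so within a change with time, age and any difference in collection between the times cannot be told apart. The questions were how each chaperone differed between 1 day and 6 weeks in control and in irradiated hearts, and between irradiated and control hearts at each time.

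Heat shock proteins bind unfolded proteins and help them to fold, to be held in a soluble state or to be degraded. The HSP70s bind short unfolded stretches in a cycle driven by ATP, J-domain proteins of the HSP40 family deliver clients and start ATP hydrolysis, and HSP110 exchanges the nucleotide. HSP90 acts later on kinases, steroid receptors and other clients, small heat shock proteins hold clients without ATP, and HSP60 folds proteins inside mitochondria. In unstressed cells most of HSF1, the main heat shock transcription factor, is held inactive. After heat or other stress it binds inverted repeats of a short unit, the heat shock element, in front of chaperone genes. In the heart these proteins are known for their response to heat, ischaemia and load.

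Stretches of promoter are shown because many of these genes share the heat shock element. The RefSeq promoter table (GRCm38.p6, 250 bases before and 50 bases after each start site) held entries for 7 of the 10 genes, and Hsp90aa1, Hsp90ab1 and Hspa8 are named only. Both strands were searched for GAANNTTC and TTCNNGAA, each of which reads as itself on the opposite strand. These letters were found in 15.1% of all 32851 promoter windows and in 7 of the 12 windows of these genes, which belong to 6 of the 7 genes, with Dnajb1 as the exception. The longer forms GAANNTTCNNGAA and TTCNNGAANNTTC, which contain the shorter ones, were in 0.603% of all windows and in 3 of the 12, which belong to Hspd1 and Hsph1. The windows of Hsph1 overlap and hold the same occurrence. It lies after the start site, at bases 16 to 28 or 37 to 49 by window, and is not in the stretch shown for Hsph1. Capitals below mark the shorter motif. The stretches are chr17:34972157-34972306 (minus strand) for Hspa1a, chr17:34959239-34959388 (minus) for Hspa1b, chr4:40722333-40722362 (plus) for Dnaja1, chr5:135887769-135887868 (plus) for Hspb1, chr5:149636351-149636380 (minus) for Hsph1 and chr1:55088053-55088082 (minus) for Hspd1.
Hspa1a: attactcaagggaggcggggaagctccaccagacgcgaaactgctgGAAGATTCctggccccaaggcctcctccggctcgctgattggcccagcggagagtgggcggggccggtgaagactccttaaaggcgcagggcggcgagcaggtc
Hspa1b: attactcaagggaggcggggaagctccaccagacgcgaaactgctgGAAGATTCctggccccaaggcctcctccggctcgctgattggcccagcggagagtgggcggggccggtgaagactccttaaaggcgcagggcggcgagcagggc
Dnaja1: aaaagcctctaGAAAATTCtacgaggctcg
Hspb1: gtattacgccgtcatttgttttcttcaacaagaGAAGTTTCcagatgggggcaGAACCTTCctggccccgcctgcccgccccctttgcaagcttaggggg
Hsph1: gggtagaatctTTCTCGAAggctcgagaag
Hspd1: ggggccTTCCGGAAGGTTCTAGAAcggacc
The stretches of Hspa1a and Hspa1b end at the start site and differ at 1 of their 150 bases. Over the whole windows the pair differed at 4 of 300 bases. The 3 shorter stretches lie upstream of the RefSeq start site but overlap first exons of other annotated transcripts of the same genes. A match of letters is a description and not a binding site.

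Counts per library ranged from 13336746 to 16837265. CPM is the count scaled to a common library total with TMM factors (edgeR), and FPKM is CPM per kilobase of the deposited gene length. Errors are SDs between mice. Cardiomyocyte markers were present in every library, and the sum of 8 of them ranged from 4674 to 40881 CPM. Transcripts of other tissues stood out in several libraries, and the 3 named first were left out together in an alternative fit. Control_6w replicate 3 held 3261 CPM of 8 thymus markers (2.83 to 46.8 in the other Control_6w libraries) and the lowest cardiomyocyte sum, and IRR_6w replicate 1 held 357 CPM of 6 lung epithelium markers and 2841 CPM of 5 atrial markers. IRR_1d replicate 3 held 1945 CPM of the atrial markers. A list of 8 testis germ cell markers summed to 54.8 to 79.1 CPM in Control_6w replicates 1, 2 and 3 and to at most 2.36 in the other libraries. In these 3 libraries most of the sum came from Odf1, Mael and Tssk2, while Prm2, Tnp1 and Ldhc had 0 counts. Hspa1l, an HSP70 gene on the list, was at 0.627 to 1.99 CPM in them. The part of these markers in the results was not tested. Control_1d replicate 2 held 536 CPM of the atrial markers (18.1 and 31.8 in the other Control_1d libraries). The sum of 4 erythroid markers was 52884 CPM in IRR_6w replicate 1 and 30469 in Control_1d replicate 3, against at most 10641 in the others, and that of 4 brown fat markers ranged from 16.9 to 1087 CPM. In RNA of whole tissue, fewer cells of a type and less RNA per cell cannot be told apart.

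Summed over the 10 genes, the level was 4146 ± 522 CPM in Control_1d, 2945 ± 35.8 in IRR_1d, and at 6 weeks 7407 ± 767 in Control_6w and 5645 ± 1643 in IRR_6w. The lowest library at 6 weeks (4599 CPM, IRR_6w) lay just below the highest at 1 day (4619 CPM, Control_1d). Per length, the cytosolic Hsp90ab1 (median 468 FPKM over 14 libraries) and Hspa8 (433) were the most abundant. Hspd1 (138), Hsp90aa1 (135) and Hspb1 (134) formed a middle tier, followed by Hsph1 (25.5), Dnaja1 (24.6), Hspa1b (21.7), Dnajb1 (12.2) and Hspa1a (10.3). Between neighbours in this order, only Hspa8 (263 to 710) and Hspd1 (62.1 to 192) had ranges over the libraries that did not overlap. The inducible HSP70 pair had the widest range, with a highest over lowest CPM of 126 for Hspa1b and 39.4 for Hspa1a, against 2.45 for Hsp90ab1 and 2.69 for Hspa8.

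**Figure D1:**
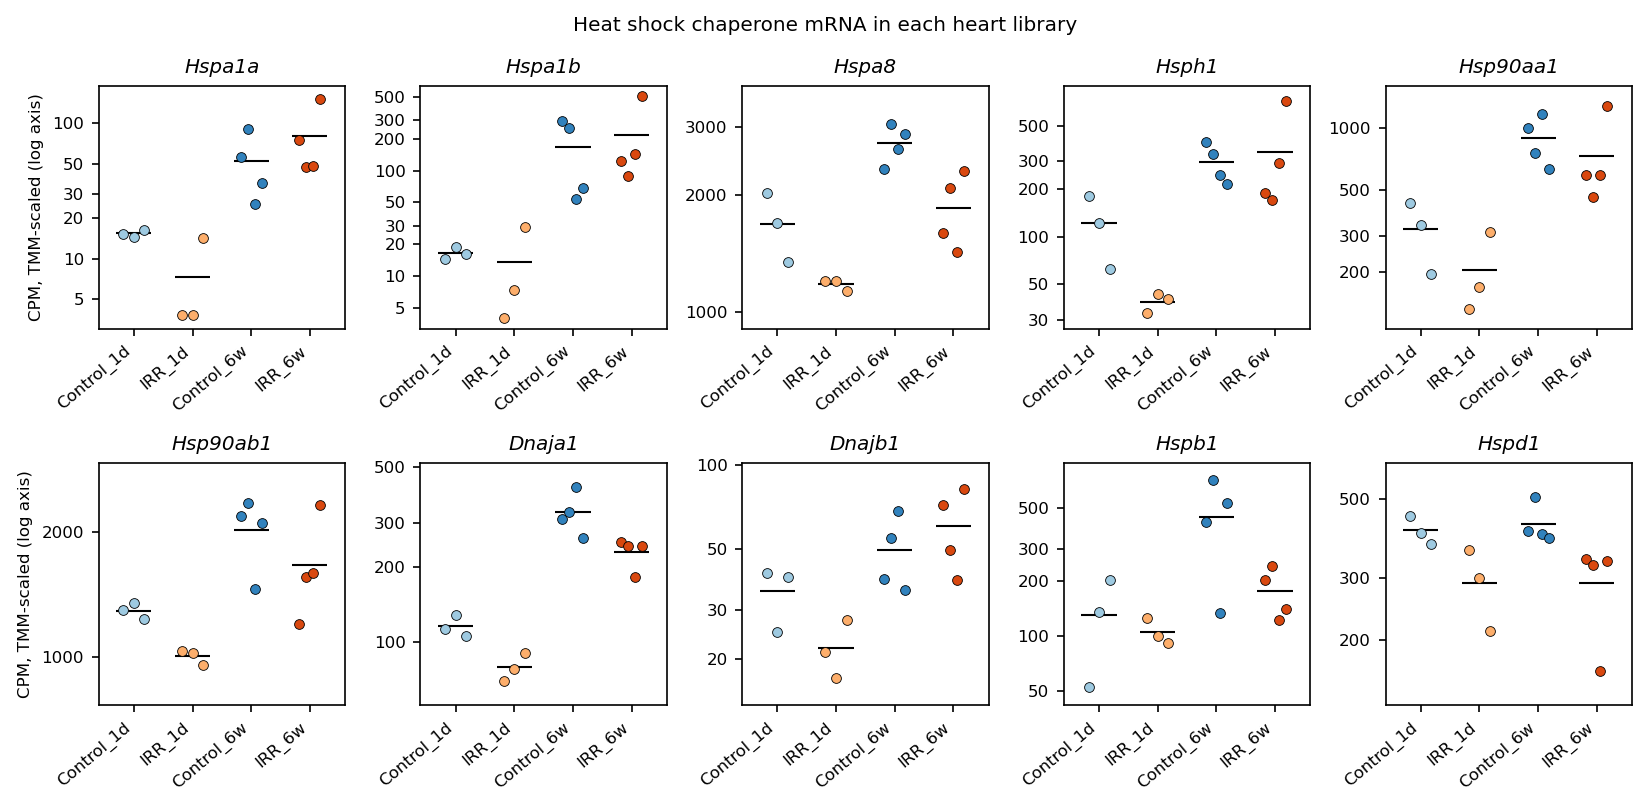
CPM of each of the 10 chaperones (log axis, own scale per gene) in both 1-day groups (n = 3 each) and both 6-week groups (n = 4 each), with 1 point per library and a bar at the group mean. Every IRR_6w library lay above every IRR_1d library for 8 of the 10 genes, Hspb1 and Hspd1 being the exceptions.

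Between 1 day and 6 weeks, all 10 chaperones were higher at the later time in control hearts, with a median log2 fold change of 1.38 against 0.12 over all genes tested. The testis germ cell marker sum was 2.36 to 79.1 CPM in Control_6w and 0 to 2.003 in Control_1d. Hspa1l, an HSP70 gene among these markers, made up all of the 2.003 CPM and 2.29 of the 2.36 CPM (Control_6w replicate 4). Apart from Hspa1l, the higher sum was that of Control_6w replicates 1, 2 and 3. The part of these markers in the results was not tested. None of the 10 chaperones was a DEG (fold change above 2 or below 0.5 and Benjamini-Hochberg adjusted p under 0.05, edgeR), and the share of all genes called was 0%. At an unadjusted p under 0.05 with no fold limit, 8 of 10 were higher, against 3.54% of all genes. The 2 groups did not overlap for 7 of 10, against 3.39% of all genes that were higher without overlap. DESeq2 called 2 of the 10 (Hspa1b and Dnaja1) and 27 of all 16034 genes when all libraries were fitted. It called 3 of the 10 when the 2 groups were fitted alone (with Hsp90aa1). Limma voom called 0, also over all genes. In irradiated hearts all 10 were again at or above their 1-day level, with a median log2 fold change of 1.50 against -0.02 over all genes. The sum of 6 macrophage markers was also higher without overlap, at 372 to 573 CPM in IRR_6w and 260 to 346 in IRR_1d, as were those of the thymus (5.47 to 27.4 and 0.264 to 1.29) and lung epithelium markers (0.950 to 357 and 0 to 0.132), and their part in these results was not tested. 1 gene, Dnaja1, rose as a DEG, against 0.0374% of all genes called. At an unadjusted p under 0.05, 8 of 10 were higher against 4.20% of all genes, and 8 of 10 were higher without overlap against 5.47%. DESeq2 called 6 (Hsp90aa1, Hspa1a, Hspa1b, Hsph1, Dnaja1 and Dnajb1) with either set of libraries. On all libraries DESeq2 called 146 of all 16034 genes. Limma voom called 2 (Hsph1 and Dnaja1), and 10 of all genes.

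**Figure D2:**
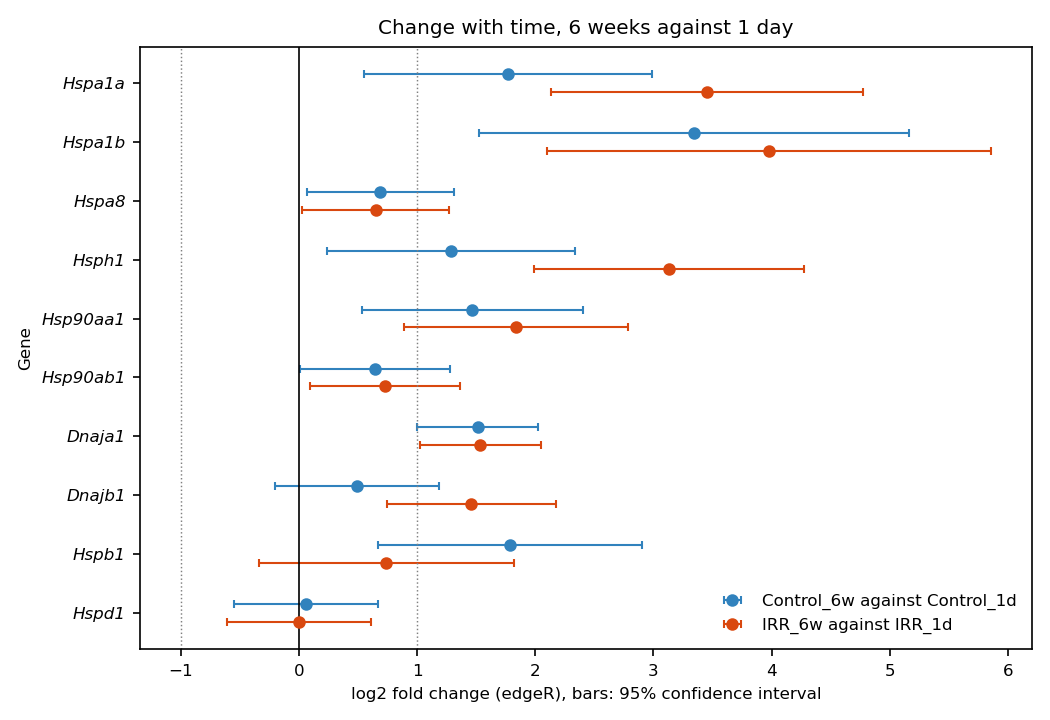
Log2 fold change with 95% confidence interval (edgeR) of each chaperone between 6 weeks and 1 day, in control hearts (blue) and irradiated hearts (orange). The dotted lines mark a fold change of 2 in either direction. Hspa1b had the highest value in both, 3.34 in controls and 3.98 in irradiated hearts, and Hspd1 the lowest, 0.06 and 0.00.

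Hspa1a (ENSMUSG00000091971, chromosome 17, 34969190 to 34972156 in GRCm38) and Hspa1b (ENSMUSG00000090877, chromosome 17, 34956436 to 34959238) encode the stress-inducible HSP70. Hspa1b stood at 14.5, 18.8 and 16.1 CPM in Control_1d and at 3.995, 7.38 and 29.5 in IRR_1d. At 6 weeks it reached 296, 251, 53.3 and 68.2 CPM in Control_6w and 123, 89.5, 145 and 504 in IRR_6w. All 8 libraries at 6 weeks lay above all 6 at 1 day, and the values at 6 weeks spread widely within each group. The fold change with time was 10.1 in controls (log2 3.34, SE 0.85, adjusted p = 0.898) and 15.8 in irradiated hearts (log2 3.98, SE 0.88, adjusted p = 0.208). With 1 library left out the log2 value in irradiated hearts ran from 3.13 without IRR_6w replicate 4 to 5.24 without IRR_1d replicate 3.

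Hspa1a was at 15.2, 14.5 and 16.3 CPM in Control_1d and at 3.80, 3.86 and 14.3 in IRR_1d. It was at 56.5, 91.1, 25.3 and 36.0 CPM in Control_6w and at 75.2, 47.6, 48.2 and 150 in IRR_6w. Here too no 6-week library overlapped the 1-day libraries. The log2 fold change with time was 1.77 in controls (SE 0.57, adjusted p = 0.902) and 3.45 in irradiated hearts (SE 0.62, adjusted p = 0.0745), where it ran from 2.96 without IRR_6w replicate 4 to 4.38 without IRR_1d replicate 3. With the counts of the pair summed it was 2.79 (SE 0.75, adjusted p = 0.902) and 3.82 (SE 0.79, adjusted p = 0.137). Of the 150-base windows of the longest annotated transcript, 46.0% of Hspa1a and 40.5% of Hspa1b were found unchanged in another gene, mostly in each other, so the split of reads between the 2 genes is uncertain. Gm20481, an antisense gene, also shares 19.0% of the exonic bases of Hspa1a.

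Relative to the constitutive Hspa8, the summed FPKM of the inducible pair was 0.029 ± 0.0071 in Control_1d, 0.027 ± 0.027 in IRR_1d, and at 6 weeks 0.125 ± 0.090 in Control_6w and 0.230 ± 0.141 in IRR_6w. The lowest ratio in IRR_6w was 0.099 and the highest 0.430, against at most 0.058 in any 1-day library. The ratios of Control_6w replicates 3 and 4, 0.045 and 0.055, lay within the range of IRR_1d.

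Hsph1 (ENSMUSG00000029657, chromosome 5, 149614287 to 149636376) encodes the HSP110 that exchanges nucleotide on HSP70. Its CPM was 182, 122 and 62.5 in Control_1d, 32.9, 43.5 and 40.5 in IRR_1d, and at 6 weeks 399, 333, 244 and 215 in Control_6w and 188, 171, 292 and 719 in IRR_6w. The 3 libraries of IRR_1d were the lowest of all 14. The log2 fold change with time was 1.29 in controls (SE 0.49, adjusted p = 0.902) and 3.14 in irradiated hearts (SE 0.53, adjusted p = 0.0640), or 8.79-fold. None of its 150-base windows was found in another gene, as for Dnajb1 and Hsp90ab1.

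Dnaja1 (ENSMUSG00000028410, chromosome 4, 40722150 to 40737149) encodes a J-domain partner of HSP70. It was measured at 112, 129 and 106 CPM in Control_1d, 69.9, 77.6 and 90.5 in IRR_1d, and at 6 weeks 309, 330, 418 and 261 in Control_6w and 250, 242, 182 and 243 in IRR_6w. The spread within each group was small, and the 6-week libraries lay above all 1-day libraries. The rise in irradiated hearts was 2.89-fold (log2 1.53, SE 0.24, adjusted p = 0.0389). The difference in controls had almost the same size, 2.85-fold (log2 1.51, SE 0.24, adjusted p = 0.134), and ranked 2 of 16034 genes by p. The call in irradiated hearts held without Control_6w replicate 3, IRR_6w replicate 1 or IRR_6w replicate 3 (3 of 14 single libraries left out). It was lost without any other single library, with adjusted p over the 14 fits from 0.00741 to 0.466 and log2 fold changes from 1.45 to 1.63. It was also lost with library totals in place of TMM, without a low-count filter, with a replicate block and in edgeR on the 2 groups alone. Of its 150-base windows 20.0% were found in other genes, most of them in Gm15542 and Smu1, so some of its reads may be shared. Dnaja1 shares 10.8% of its exonic bases with Gm6297, Mir207 and Smu1, and strandedness of the counting is not given in the sources used here.

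Dnajb1 (ENSMUSG00000005483, chromosome 8, 83608193 to 83612653) encodes the other J-domain protein of the group, a partner of inducible HSP70. The libraries held 40.7, 25.0 and 39.7 CPM in Control_1d, 21.1, 17.1 and 27.6 in IRR_1d, and at 6 weeks 38.7, 54.6, 68.5 and 35.4 in Control_6w and 71.7, 49.6, 38.5 and 81.7 in IRR_6w. Control groups overlapped between the times and irradiated groups did not. The log2 fold change was 0.49 in controls (SE 0.33, adjusted p = 0.902) and 1.46 in irradiated hearts (SE 0.34, adjusted p = 0.250).

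The 2 cytosolic HSP90 genes differed in how much they varied. Hsp90aa1 (ENSMUSG00000021270, chromosome 12, 110690605 to 110702728), the stress-responsive α form, was at 432, 341 and 197 CPM in Control_1d, 133, 169 and 315 in IRR_1d, and at 6 weeks 1007, 757, 1175 and 636 in Control_6w and 595, 465, 596 and 1281 in IRR_6w. Every 6-week library lay above every 1-day library. Its log2 fold change with time was 1.47 in controls (SE 0.44, adjusted p = 0.902) and 1.84 in irradiated hearts (SE 0.44, adjusted p = 0.296). Hsp90ab1 (ENSMUSG00000023944, chromosome 17, 45567775 to 45573271), the constitutive β form, was at 1231 to 1348 CPM in Control_1d, 957 to 1030 in IRR_1d, and at 6 weeks 1457 to 2345 in Control_6w and 1200 to 2311 in IRR_6w. Its log2 fold change was 0.65 in controls (SE 0.30) and 0.73 in irradiated hearts (SE 0.30), with adjusted p of 0.902 and 0.798. The FPKM of Hsp90aa1 over that of Hsp90ab1 was 0.190 ± 0.066 in Control_1d, 0.159 ± 0.081 in IRR_1d, and at 6 weeks 0.361 ± 0.178 in Control_6w and 0.329 ± 0.088 in IRR_6w, with overlapping ranges.

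Hspa8 (ENSMUSG00000015656, chromosome 9, 40800984 to 40810087), the constitutive HSP70, ranged from 1342 to 2027 CPM in Control_1d, 1133 to 1204 in IRR_1d, and at 6 weeks 2328 to 3053 in Control_6w and 1424 to 2302 in IRR_6w. Its log2 fold change with time was 0.69 in controls (SE 0.29) and 0.65 in irradiated hearts (SE 0.29), with adjusted p of 0.902 and 0.840. Other genes held 22.4% of the 150-base windows of Hspa8, 36.6% of those of Hspb1 and 18.6% of those of Hspd1, so their counts may share reads too. Hspb1 (ENSMUSG00000004951, chromosome 5, 135887919 to 135889563), the small heat shock protein HSP25, was at 52.4, 136 and 203 CPM in Control_1d and 125, 101 and 92.1 in IRR_1d. At 6 weeks it was at 424, 714, 134 and 532 CPM in Control_6w and 203, 241, 123 and 140 in IRR_6w. The low Control_6w value belongs to replicate 3, the library with thymus transcripts, whose cardiomyocyte marker sum was 4674 CPM against 20638 to 39921 in the other Control_6w libraries. The part of that difference in the Hspb1 result was not tested. The log2 fold change with time was 1.79 in controls (SE 0.52, adjusted p = 0.902) and 0.74 in irradiated hearts (SE 0.50, adjusted p = 0.999).

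Hspd1 (ENSMUSG00000025980, chromosome 1, 55077835 to 55088243), the mitochondrial HSP60, was nearly level over time. It was at 448, 401 and 374 CPM in Control_1d and 405, 506, 399 and 388 in Control_6w. In irradiated hearts it was at 358, 298 and 212 CPM in IRR_1d and 338, 326, 164 and 334 in IRR_6w. The log2 fold changes with time were 0.06 (95% confidence interval -0.55 to 0.67) and 0.00 (-0.61 to 0.61). Adjusted p were 0.990 and 0.999.

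Control_6w replicate 3, IRR_6w replicate 1 and IRR_1d replicate 3 were left out together in one alternative fit. The count of DEGs among the 10 then stayed at 0 in controls, where the log2 fold change was 3.64 for Hspa1b, 2.09 for Hspb1 and 1.38 for Dnaja1. In irradiated hearts it was 5 (Hsp90aa1 at 2.37, Hspa1a at 4.41, Hspa1b at 5.44, Hsph1 at 3.36 and Dnaja1 at 1.59). Adjusted p of these 5 were 0.0474, 0.00867, 0.0168, 0.0351 and 0.0117, and over all alternatives, DESeq2 included, they ran from 0.00249 to 1 for Hsp90aa1, 5.92e-07 to 0.680 for Hspa1a, 9.49e-06 to 1 for Hspa1b, 5.65e-08 to 0.543 for Hsph1 and 2.70e-08 to 0.466 for Dnaja1. Leaving out single libraries gave 3 DEGs without Control_6w replicate 3 (Hspa1a, Hsph1 and Dnaja1), 2 without IRR_6w replicate 1 (Hsph1 and Dnaja1), 1 without IRR_1d replicate 3 (Hspa1a), 1 without IRR_6w replicate 3 (Dnaja1) and 0 without each of the others. IRR_6w replicate 4 held the highest value of its group for Hspa1a, Hspa1b, Hsph1, Hsp90aa1, Hsp90ab1, Hspa8 and Dnajb1, and was above its group mean for 9 of the 10 genes. Without it the log2 fold change in irradiated hearts was 3.13 for Hspa1b, 2.96 for Hspa1a, 2.48 for Hsph1, 1.42 for Hsp90aa1, 1.50 for Dnaja1 and 1.28 for Dnajb1, and no chaperone was a DEG.

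**Figure D3:**
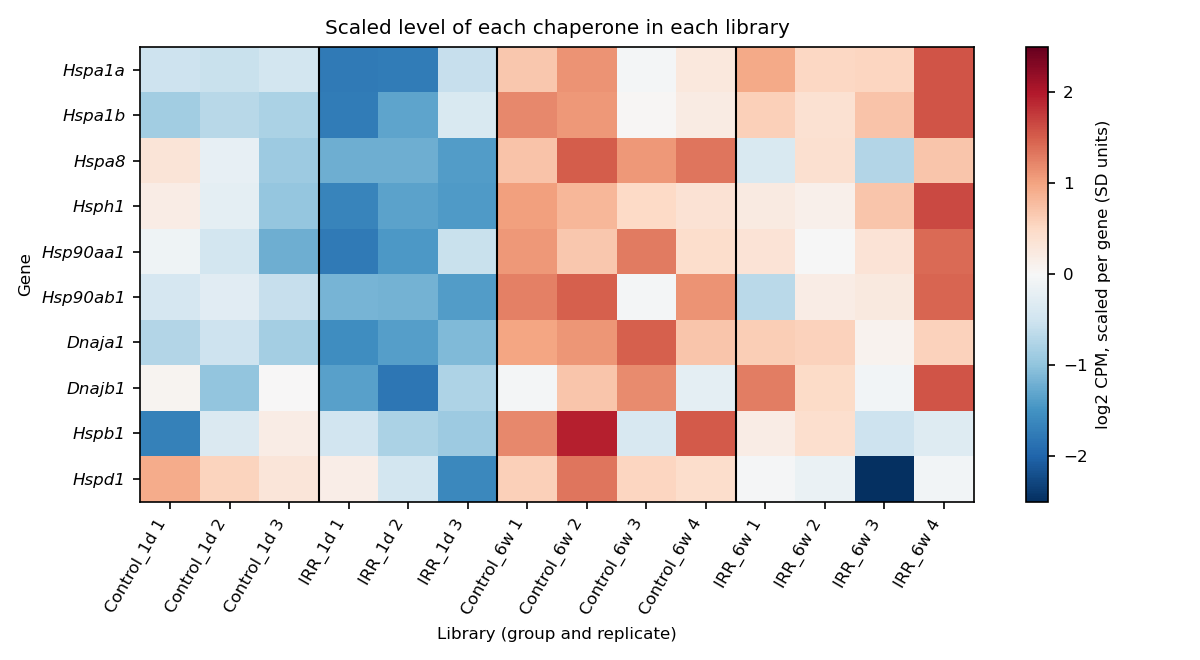
Log2 CPM of the 10 chaperones in each of the 14 libraries, scaled per gene to mean 0 and SD 1 (red above, blue below the gene's mean, vertical lines between groups). IRR_6w replicate 4 lay above its group mean for 9 of 10 genes, and Hspb1 and Hspd1 departed most from the pattern of the other genes.

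At 1 day after irradiation, all 10 chaperones were lower in IRR_1d than in Control_1d, with a median log2 fold change of -0.53 against 0.06 over all genes. The sum of 5 endothelial markers was also lower without overlap, at 872 to 1051 CPM in IRR_1d and 1229 to 1410 in Control_1d, as was the low thymus marker sum (0.264 to 1.29 and 2.11 to 4.01), and their part in these results was not tested. None was a DEG in edgeR, against 0.0249% of all genes called. At an unadjusted p under 0.05, 2 of 10 were lower against 0.960% of all genes, and 6 of 10 (Hsp90ab1, Hspa1a, Hspa8, Hsph1, Dnaja1 and Hspd1) were lower without overlap against 4.14%. DESeq2 called 0 with all libraries, against 30 of all 16034 genes, and 1, Hsph1, with the 2 groups alone. Limma voom called 0, also over all genes. Hsph1 was lowest relative to controls at 0.319-fold (log2 -1.65, SE 0.52, adjusted p = 1). Dnaja1 was 0.686-fold (log2 -0.54, SE 0.25, adjusted p = 1). For Hspa1a the log2 fold change was -1.06 (SE 0.59, adjusted p = 1), and -1.99 without IRR_1d replicate 3, the library with atrial transcripts and with the highest Hspa1a, Hspa1b and Hsp90aa1 of its group. Hspa1b was at -0.27 (SE 0.81) with that library and at -1.53 without it. The other 6 ranged from -0.68 for Dnajb1 to -0.30 for Hspb1.

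At 6 weeks the chaperones did not lie to one side. In IRR_6w, 6 were lower and 4 (Hspa1a, Hspa1b, Hsph1 and Dnajb1) higher than in Control_6w, with a median log2 fold change of -0.28 against -0.09 over all genes. The sums of 6 fibroblast markers (2187 to 3144 CPM in IRR_6w, 856 to 2050 in Control_6w) and of 6 macrophage markers (372 to 573 and 110 to 257) were higher without overlap. The testis germ cell sum was 0 to 1.67 CPM in IRR_6w and 2.36 to 79.1 in Control_6w. Of the 2.36 CPM, in Control_6w replicate 4, 2.29 came from Hspa1l, itself an HSP70 gene, so the absence of overlap between the groups rests on that gene. In the other Control_6w libraries most of the sum came from Odf1, Mael and Tssk2. The part of these markers in the results was not tested. None of the 10 chaperones was a DEG in edgeR, against 0.256% of all genes called. DESeq2 and limma voom also called 0 of the 10. Over all 16034 genes, DESeq2 on all libraries called 331 and limma voom 18. At an unadjusted p under 0.05, 2 of 10 (Hspb1 and Dnaja1) were lower against 3.37% of all genes. Hspa8, Dnaja1 and Hspd1, 3 of 10, were lower without overlap, against 1.64% of all genes. Hspb1 was 0.392-fold (log2 -1.35, SE 0.47, adjusted p = 0.350), and at a log2 fold change of -1.65 with adjusted p = 0.0880 without Control_6w replicate 3. Its adjusted p over all alternatives ran from 0.0880 to 0.697. Dnaja1 was 0.696-fold (log2 -0.52, SE 0.21, adjusted p = 0.473). Hspa8 was 0.680-fold (log2 -0.56, SE 0.27, adjusted p = 0.583) and Hspd1 0.684-fold (log2 -0.55, SE 0.26, adjusted p = 0.588). The 4 higher genes had log2 fold changes of 0.62 for Hspa1a (95% confidence interval -0.44 to 1.68), 0.37 for Hspa1b (-1.11 to 1.84), 0.29 for Dnajb1 (-0.35 to 0.93) and 0.20 for Hsph1 (-0.74 to 1.14). The sign for Hsph1 and Hspa1b turned without IRR_6w replicate 4, to -0.46 and -0.49. With 1 library left out, Hspa1a ran from 0.13 to 1.01 and Dnajb1 from 0.11 to 0.49.

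**Figure D4:**
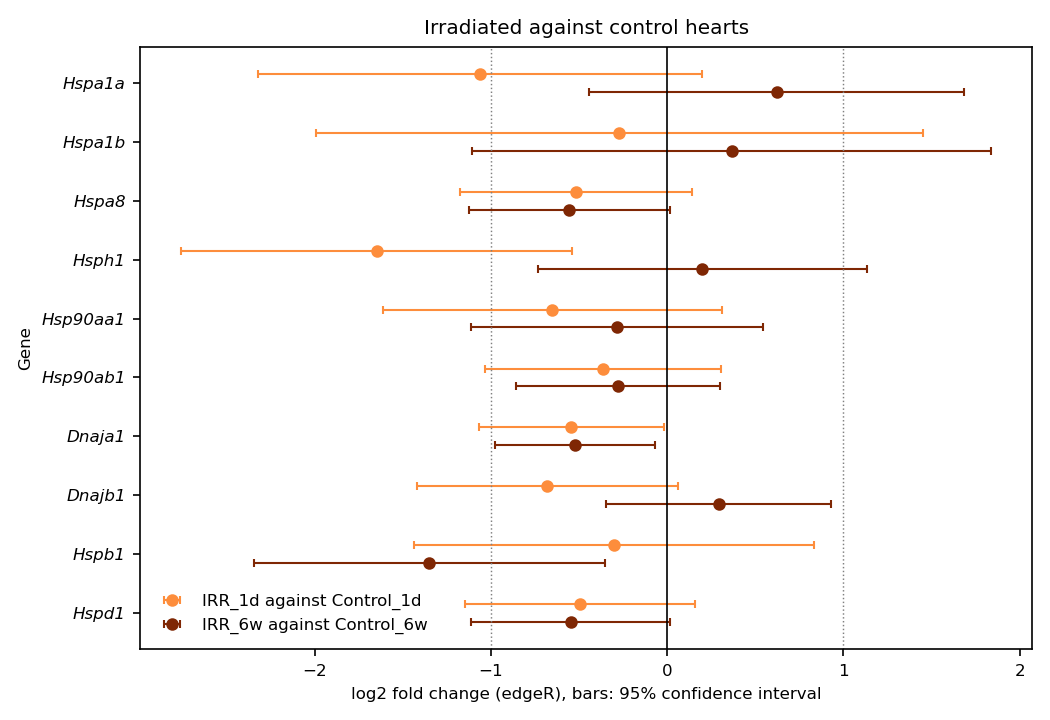
Log2 fold change with 95% confidence interval (edgeR) of each chaperone between irradiated and control hearts at 1 day (light orange) and at 6 weeks (brown), with dotted lines at a fold change of 2 in either direction. All 10 values at 1 day lay below 0, from -1.65 for Hsph1 to -0.27 for Hspa1b, and at 6 weeks 4 lay above 0.

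Whether the irradiation effect differed between the times, which is the same as whether the change with time differed between irradiated and control hearts, was tested as an interaction. No chaperone was a DEG in edgeR (0% of all genes). DESeq2 on all libraries and limma voom called 0 of the 10, against 43 and 0 of all 16034 genes. At an unadjusted p under 0.05, 2 of 10 were higher, against 2.13% of all genes. They were Hsph1, with a log2 difference of 1.85 (SE 0.67, adjusted p = 0.990), and Hspa1a, with 1.68 (SE 0.77, adjusted p = 0.990). Without IRR_6w replicate 4 the difference was 1.19 for each gene, and without IRR_1d replicate 3 it was 2.61 for Hspa1a. Dnajb1 was at 0.97 (SE 0.46, adjusted p = 0.990) and Hspb1 at -1.05 (SE 0.70, adjusted p = 0.990). With 1 library left out, Dnajb1 ran from 0.79 to 1.18 and Hspb1 from -1.54 to -0.67. The differences were near 0 for Dnaja1 (0.02, 95% confidence interval -0.67 to 0.71), Hspa8 (-0.04, -0.91 to 0.83), Hspd1 (-0.05, -0.92 to 0.81) and Hsp90ab1 (0.09, -0.80 to 0.97).

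Of the genes outside the 10, those whose level over the 14 libraries followed the mean scaled level of the chaperones most closely were Gm12346 (Pearson r = 0.935, over 16024 genes compared), Tubb2a (0.923), Ahsa2 (0.915), P4ha1 (0.910), Nfkb1 (0.881), Cry1 (0.877), Rin3 (0.867) and Nfil3 (0.858). The libraries share the differences between groups and in depth, so these values are a description. Gm12346 is a pseudogene with 44.7% of its 150-base windows in Hsp90aa1, and 36.2% of those of Hsp90aa1 were found in other genes, so their counts may share reads. The same holds for Ahsa2, with 53.6% of its windows in Usp34, and for Tubb2a, with 27.9% of its windows in other genes, mostly Tubb2b. Ahsa2 encodes an activator of the HSP90 ATPase, P4ha1 a collagen prolyl hydroxylase, and Cry1 and Nfil3 components of the circadian system. Cry1 was at 11.8 ± 2.75 CPM in Control_1d, 11.5 ± 1.20 in IRR_1d, and at 6 weeks 39.9 ± 5.49 in Control_6w and 22.8 ± 10.3 in IRR_6w. Among the 10 themselves, the highest correlation was that of Hspa1a with Hspa1b (r = 0.964), which share sequence, followed by Hsp90aa1 with Hsph1 (0.929). Those of Hspd1 with the inducible pair were 0.072 and -0.015.

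Related genes were taken from lists. Of 13 HSP90 co-chaperones, none was a DEG in any comparison. In controls 3 were higher at 6 weeks at an unadjusted p under 0.05 (3.54% of all genes), among them Fkbp5 (log2 fold change 1.81, SE 0.46, adjusted p = 0.898), a co-chaperone of steroid receptors, and Stip1 (1.23, SE 0.42, adjusted p = 0.902), which links HSP70 and HSP90. In irradiated hearts 4 were higher (4.20% of all genes), among them Chordc1 (1.35, SE 0.42, adjusted p = 0.573). At 6 weeks all 13 were lower in irradiated than in control hearts, where 43.8% of all genes were higher, 4 of them at an unadjusted p under 0.05 against 3.37% of all genes, with Fkbp5 at -1.14 (SE 0.40, adjusted p = 0.365). Of 10 immediate early genes, which mark handling as well as stress, 1 (Atf3) was higher at an unadjusted p under 0.05 in each time comparison. Over all genes these shares were 3.54% in controls and 4.20% in irradiated hearts. At any p, 8 of the 10 were higher in controls and 9 in irradiated hearts (59.1% and 48.5% of all genes). Their median log2 fold changes were 0.71 and 0.52, against 0.12 and -0.02 over all genes. The part of handling in the chaperone results was not tested. The 6 heat shock factors and regulators, which include Hsf1 and Bag3, had no unadjusted p under 0.05 in any comparison, and Hsf1 was at 0.44 (SE 0.47) in controls and -0.42 (SE 0.47) in irradiated hearts over time.

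Other chaperone classes were counted in the same way. Of 9 further J-domain genes, 1 in controls (Dnajc3) and 0 in irradiated hearts were higher at an unadjusted p under 0.05, and of 8 other HSP70 and HSP110 genes 0 and 1 (Hspa4l). The 6 other small heat shock genes, the 13 genes of the cytosolic chaperonin and prefoldin, and the 5 BAG genes had none in either time comparison. Of 10 mitochondrial chaperones 1, Clpx, was lower in controls (log2 fold change -0.73, SE 0.22, adjusted p = 0.902), against 1.75% of all genes lower at that limit. Hspe1, the HSP10 partner of Hspd1 that shares its promoter region, was at -0.68 between irradiated and control hearts at 6 weeks (SE 0.23, adjusted p = 0.310). Of 13 chaperones of the endoplasmic reticulum, 5 were higher with time in controls, such as Hyou1 (1.11, SE 0.30, adjusted p = 0.902), and 1 in irradiated hearts, where all genes gave 3.54% and 4.20%. Of 7 unfolded protein response factors 4 were higher (3.54% of all genes) and 1 lower (1.75%) in controls. In irradiated hearts 2 were higher (4.20%), among them Atf3 at 2.91 (SE 0.58, adjusted p = 0.115). Atf3 is also the immediate early gene counted above, so it stands in both lists. The median log2 fold changes with time in controls and irradiated hearts were 0.48 and 0.21 for the co-chaperones, 0.34 and 0.02 for the cytosolic chaperonin, 0.56 and 0.08 for the endoplasmic reticulum, and 0.74 and 0.28 for the unfolded protein response factors.

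**Figure D5:**
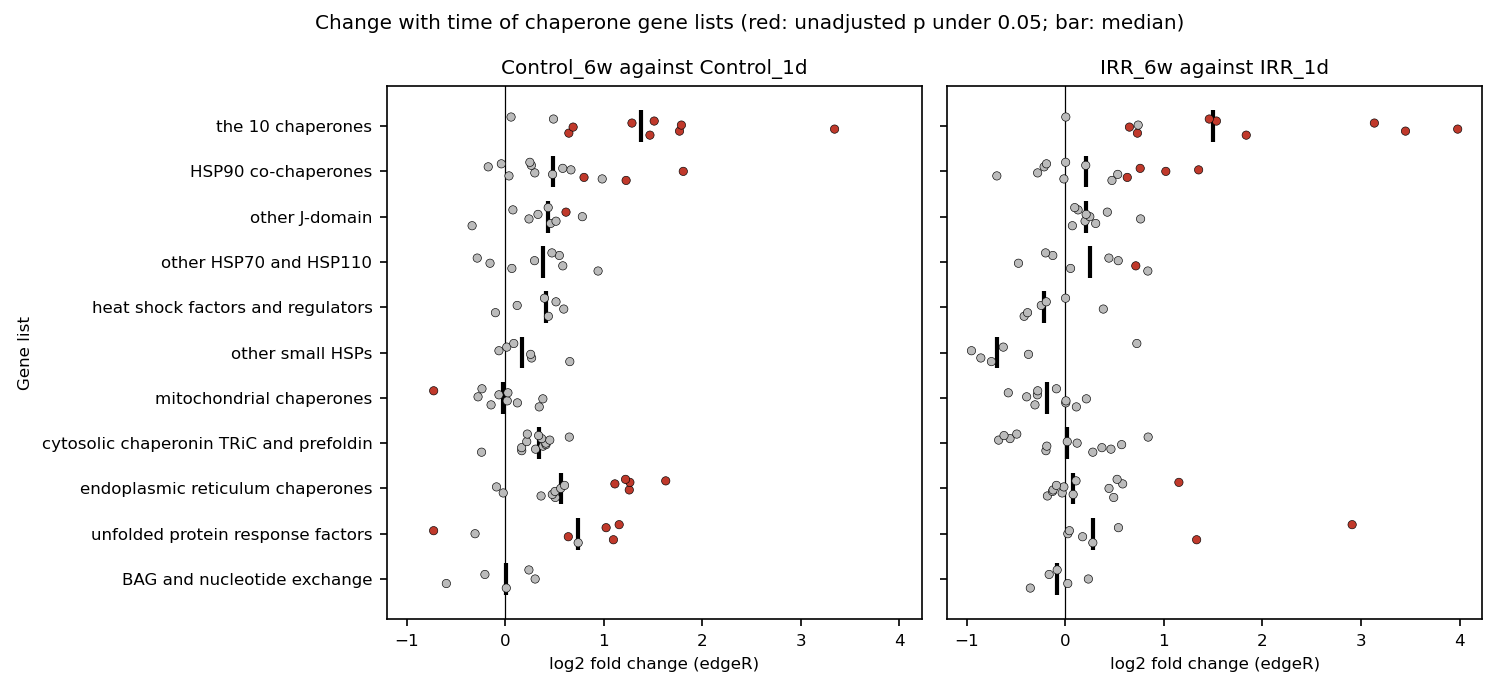
Log2 fold change (edgeR) between 6 weeks and 1 day of the 10 chaperones and of 10 lists of related genes, in control hearts (left) and irradiated hearts (right), with 1 point per gene, red at an unadjusted p under 0.05, and a bar at the median of each list. The median of the 10 chaperones was 1.38 and 1.50, and those of the other lists lay between -0.69 and 0.74, the highest being that of the unfolded protein response factors in controls.

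Clock genes differed between the same groups. Of 14 clock genes, 3 were higher and 4 lower at 6 weeks in controls at an unadjusted p under 0.05, against 3.54% of all genes higher and 1.75% lower. In irradiated hearts 2 were higher and 7 lower, against 4.20% and 1.60%. Nr1d2 was lower in both, at a log2 fold change of -1.62 in controls (SE 0.24, adjusted p = 0.127) and as a DEG at -1.55 in irradiated hearts (SE 0.24, adjusted p = 0.0389). Its level was 148 ± 25.2 CPM in Control_1d, 181 ± 30.3 in IRR_1d, and at 6 weeks 48.2 ± 9.42 in Control_6w and 61.7 ± 11.3 in IRR_6w. At 1 day 3 clock genes were higher in irradiated hearts, against 1.94% of all genes, among them Per3 (1.11, SE 0.39, adjusted p = 1). Cirbp, an RNA-binding gene induced by cold, was lower at 6 weeks without overlap in both time comparisons. Over all genes 2.53% in controls and 3.84% in irradiated hearts were lower without overlap. The log2 fold change of Cirbp was -0.44 (SE 0.25, adjusted p = 0.902) in controls and -0.72 (SE 0.25, adjusted p = 0.674) in irradiated hearts. Rbm3, the other cold-induced gene of the list, overlapped between the times, at 0.45 in controls and -0.16 in irradiated hearts. The time of day at which hearts were taken is not given in the sources used here, and its part in the chaperone results was not tested.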

How the data were processed

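RNA of 14 mouse hearts was measured by paired-end sequencing. Per the labels and the methods of the study, the authors checked the reads with FastQC 0.11.8, trimmed them with Trim Galore 0.6.1, aligned them to mm10 with STAR 2.5.0a and took gene counts from HTSeq. The counts that the authors deposited are whole numbers without normalization, beside a gene length (in bases, not stated how taken). Counting mode and strandedness are not given in the sources used here.

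The tests were run in R 4.3.3 with edgeR 4.0.16 (filterByExpr by group, 16034 genes kept, TMM, 1 quasi-likelihood model of the 4 groups, contrasts, Benjamini-Hochberg over all genes). Genes with an adjusted p under 0.05 and a fold change beyond 2 in either direction were called DEGs. DESeq2 1.42.0, limma 3.58.1 (voom), library totals, no low-count filter, the groups compared alone, a replicate block, each library left out in turn, 3 libraries left out together, the summed Hspa1a and Hspa1b counts and unadjusted p were alternatives. The fit was tested on simulated data. The lowest count of a chaperone in any library was 45.

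The 10 genes were named by symbol, other genes by lists (at most 3 per list and comparison with the smallest p) and by the 8 highest correlations with the mean of the scaled log2 CPM (prior count 2). The members and lists were chosen with earlier results of these data known. Clock genes and Cirbp are given beside the results they moved with, and a few were named after their values were seen. Correlations of deviations from group means between same-numbered libraries averaged -0.01 over 19 pairs (-0.36 to 0.42), so the numbers do not pair the mice. Libraries of a group are taken as separate mice. Each edgeR p-value is that of a quasi-likelihood F test of a contrast. The spread between mice that it uses was estimated over all 4 groups and drawn toward that of other genes. Expression is given as CPM with TMM-scaled totals and FPKM from the deposited length.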

Additional observations from a re-analysis of the deposited data

Results flagged for a closer look

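Of 20 groups of 4 libraries tested (10 genes, Control_6w and IRR_6w), 5 held a library far from the other 3 by Dixon's test. Its limit gives about 1 in 20 only for independent values of normal spread. CPM was not logged here, and the genes were correlated over the same libraries (Hsp90aa1 with Hspa1b at r = 0.880). The share of all genes flagged by this rule was not taken, so the count is a description. IRR_6w replicate 4 was high for Hsp90aa1 (1281 CPM, the others at 465 to 596) and for Hspa1b (504 CPM, the others at 89.5 to 145). IRR_6w replicate 3 was low for Dnaja1 (182 CPM, the others at 242 to 250) and for Hspd1 (164 CPM, the others at 326 to 338). Control_6w replicate 2 was high for Hspd1 (506 CPM, the others at 388 to 405).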

How the results depend on the processing

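In the irradiated time comparison (1 DEG among the 10 chaperones in the edgeR model of all groups) the count was 0 with library totals, in edgeR on the 2 groups alone and with a replicate block, 2 with limma voom, 3 without a low-count filter, 5 without Control_6w replicate 3, IRR_6w replicate 1 and IRR_1d replicate 3 together, and 6 with DESeq2 on all libraries, with DESeq2 on the 2 groups alone and at an unadjusted p with the same fold limits. Leaving out 1 library gave 0 to 3. In controls (0) it was 2 with DESeq2 on all libraries, 3 with DESeq2 on the 2 groups alone, 6 at an unadjusted p, and 0 under the other alternatives and without any 1 library. At 1 day (0) it was 1 with DESeq2 on the 2 groups alone and 1 at an unadjusted p. At 6 weeks (0) it was 1, and for the interaction (0) it was 2, at an unadjusted p. Over all genes, 3.06% in irradiated hearts and 2.72% in controls were higher over time at an unadjusted p with these fold limits. At these limits 0.674% were lower at 1 day, 1.75% lower at 6 weeks and 1.98% higher for the interaction. The replicate block changed no other call. The edgeR and DESeq2 fits of the groups compared alone were not run for the interaction, which needs all groups.

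The following log2 fold changes turned sign under an alternative. Hspd1 in irradiated hearts over time was -0.0272 with limma voom, -0.00198 with DESeq2 on the 2 groups, -0.0229 without a filter, -0.0291 with the replicate block, -0.26 without those 3 libraries, and -0.18 to 0.20 without 1 library. At 6 weeks Hspa1b was -0.0612 with the block and -0.49 to 0.77 without 1 library, and Hsph1 was -0.0286 with voom, -0.00274 with the block and -0.46 to 0.42 without 1 library. Without 1 library, the range was -1.53 to 0.18 for Hspa1b and -0.68 to 0.20 for Hspb1 at 1 day, and -0.0215 to 0.13 for Hspd1 in controls over time. For the interaction, library totals gave 0.17 for Hspa8 and 0.16 for Hspd1. Without 1 library the interaction ranged from -0.0851 to 0.16 for Dnaja1, -0.0437 to 0.80 for Hsp90aa1, -0.11 to 0.22 for Hsp90ab1, -0.21 to 1.90 for Hspa1b, -0.19 to 0.0694 for Hspa8 and -0.24 to 0.14 for Hspd1. The cause of these shifts was not tested. Library totals moved the median of all genes by 0.16 in controls and 0.32 in irradiated hearts over time, 0.08 at 1 day and 0.23 at 6 weeks (log2). Groups held 3 or 4 mice, and the part of depth was not tested.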
